A study of Rattus norvegicus with 9 samples.

Results

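The 36 genes described here carry cholesterol and fatty acid synthesis, sterol movement and the SREBP and LXR systems that control them. They were chosen by symbol from a list of these pathways, with earlier results of these data known, and all 36 had a row among the 18924 genes of the count table and passed the filter on low counts that left 13856 genes for testing. RNA came from cultured chondrocytes of SD rats, the cells that build and keep cartilage matrix, at passage 1 or 2 after growth in medium with serum. The cells spent 24 h in rat plasma that held thrombin plus an unnamed inhibitor (RPTi), thrombin only (RPT) or neither (RP), with 3 libraries per group, named RPTi1 to RPTi3, RPT1 to RPT3 and RP1 to RP3. Plasma was thus common to all groups, and its lipid content and any serum left in the medium are not stated. There was no group with the inhibitor alone, so RPTi against RP does not separate what the inhibitor does without thrombin. The series addresses how thrombin, the clotting protease that also signals through protease-activated receptors, regulates chondrocytes.

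Cholesterol is made from acetyl-CoA through mevalonate, farnesyl diphosphate and squalene, by enzymes of the endoplasmic reticulum and cytosol. Their genes are switched on together by SREBP-2, and fatty acid genes more by SREBP-1c, membrane-bound factors that Scap carries to the Golgi for cleavage when sterols are low and that Insig proteins hold back when sterols are high. The nuclear receptors LXRα and LXRβ are activated by oxysterols and raise transcription of the cholesterol exporters and of Srebf1. In humans, inherited loss of the late sterol enzymes EBP and NSDHL disturbs skeletal growth, and sterol and LXR signalling has been studied in cartilage for its bearing on matrix turnover.

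Library totals were 31914905 to 37125039 counts in RPTi, 31877265 to 37009972 in RPT and 33520888 to 43962783 in RP, so that 1 count was worth 0.0226 to 0.0323 CPM. Values of single libraries are given as CPM, counts scaled to library size by TMM, and levels are compared between genes only as FPKM, which also divides by gene length. The collagen gene Col2a1 and the aggrecan gene Acan were the most abundant chondrocyte markers in every group. The summed FPKM of 9 chondrocyte markers was 14320 to 15460 in RPTi, 5932 to 6384 in RPT and 9707 to 9883 in RP, and all 9 fell in RPT against RP and rose in RPTi against RPT. A set of 6 fibroblast markers, led by Col1a1 and Col3a1, summed to 3117 to 3367 FPKM in RPTi, 2184 to 2329 in RPT and 3366 to 3526 in RP. These 6 did not move together: in RPT against RP, 4 fell and 1 rose (Dcn). In RPTi against RPT, Col1a1 and Col3a1 rose while Dcn, Pdgfra and Thy1 fell. All 9 chondrocyte markers had counts in each group, so the defining genes of the labelled cell type were present, while those of the 4 cell types that follow were low. Markers of macrophages (6 with a row, led by Cd68 and Csf1r) summed to 1.76 to 2.17 FPKM in RPTi, 3.80 to 3.92 in RPT and 2.789 to 2.999 in RP, with Adgre1 at 0 in RPTi and C1qa at 0 in RPT. Adipocyte markers (6, led by Fabp4 and Cfd, with Lep at 0 in RP) summed to 3.15 to 5.10 FPKM in RPTi, 6.20 to 7.47 in RPT and 4.87 to 7.40 in RP. Hepatocyte markers (5, led by Serpina1 and Apoa1) did not exceed 1.70 FPKM in any library, with Alb and Apob at 0 in RPTi and RPT and Fgb at 0 in RPTi, and 4 endothelial markers, led by Tek and Kdr, did not exceed 0.225 FPKM. Fewer cells of a type and less RNA per cell cannot be told apart in such bulk libraries, and the part of these marker shifts in the results that follow was not tested.

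The 36 genes were expressed at a mean over the 9 libraries of 0.335 to 269 FPKM, with a median of 28.8 FPKM, and 35 of them reached 1 FPKM. Npc2, which carries cholesterol inside lysosomes, had the highest level at 269 FPKM. It was followed by Fdps, the farnesyl diphosphate synthase, at 129.9 FPKM and by Srebf1 at 111 FPKM. Srebf1 thus stood above Srebf2 (39.6 FPKM), the gene of the other SREBP precursor. The exporter gene Abcg1 was the lowest at 0.335 FPKM, far under its relative Abca1 (3.96 FPKM). Replicates lay close together, with a median coefficient of variation of CPM of 5.68% in RPTi, 7.92% in RPT and 5.62% in RP. Abcg1 varied most in each group (36.3% in RPTi, 23.8% in RPT and 32.4% in RP).

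Promoter sequence was available from RefSeq (assembly GRCr8, another build than the Rnor_6.0 of the counts) for 29 of the 36 genes, as 250 bases before and 50 bases after each start site. The windows below belong to the 4 genes with the smallest p over the 3 groups that held a match to any motif searched, and they differ in which boxes they hold. Capitals mark exact matches, on either strand, to the CCAAT box (CCAAT) and the GC box (GGGCGG). Hsd17b7, on the minus strand at chr13:84722705-84723004, had 3 CCAAT boxes, read on the opposite strand, which began 176, 86 and 25 bases before the start. Fads2 (chr1:216171984-216172283, minus strand) had 1 GC box and no CCAAT box. Lpin1 (chr6:45108893-45109192, minus strand) had 1 CCAAT box, 55 bases before the start. Srebf1 has 2 start sites in the table, at chr10:45529115-45529414 and chr10:45518961-45519260 on the minus strand, with 3 GC boxes each. Reads from both Srebf1 starts were added into 1 gene-level count, so that its first exons cannot be told apart here.
Hsd17b7: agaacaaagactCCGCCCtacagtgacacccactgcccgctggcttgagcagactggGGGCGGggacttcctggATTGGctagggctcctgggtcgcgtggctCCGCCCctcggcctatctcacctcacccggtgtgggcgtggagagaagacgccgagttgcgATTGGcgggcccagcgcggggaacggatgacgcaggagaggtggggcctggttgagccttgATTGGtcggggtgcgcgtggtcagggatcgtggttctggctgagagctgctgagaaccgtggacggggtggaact
Fads2: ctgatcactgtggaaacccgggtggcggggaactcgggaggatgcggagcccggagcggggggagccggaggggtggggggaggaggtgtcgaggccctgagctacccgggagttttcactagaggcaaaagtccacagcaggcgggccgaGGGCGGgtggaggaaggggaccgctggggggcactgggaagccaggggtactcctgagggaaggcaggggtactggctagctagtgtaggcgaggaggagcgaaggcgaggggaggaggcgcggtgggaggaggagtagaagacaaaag
Lpin1: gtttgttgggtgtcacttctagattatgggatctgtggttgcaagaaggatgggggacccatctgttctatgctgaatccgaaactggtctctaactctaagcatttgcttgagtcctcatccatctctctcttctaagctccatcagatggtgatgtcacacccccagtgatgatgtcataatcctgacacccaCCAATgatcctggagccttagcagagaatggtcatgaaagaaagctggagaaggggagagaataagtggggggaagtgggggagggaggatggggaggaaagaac
Srebf1, upstream start: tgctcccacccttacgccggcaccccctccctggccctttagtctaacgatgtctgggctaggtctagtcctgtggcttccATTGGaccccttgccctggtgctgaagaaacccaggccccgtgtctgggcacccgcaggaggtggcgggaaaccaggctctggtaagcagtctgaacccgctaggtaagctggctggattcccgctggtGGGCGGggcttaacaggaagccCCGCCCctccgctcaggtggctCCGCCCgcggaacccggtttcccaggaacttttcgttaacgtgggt
Srebf1, downstream start: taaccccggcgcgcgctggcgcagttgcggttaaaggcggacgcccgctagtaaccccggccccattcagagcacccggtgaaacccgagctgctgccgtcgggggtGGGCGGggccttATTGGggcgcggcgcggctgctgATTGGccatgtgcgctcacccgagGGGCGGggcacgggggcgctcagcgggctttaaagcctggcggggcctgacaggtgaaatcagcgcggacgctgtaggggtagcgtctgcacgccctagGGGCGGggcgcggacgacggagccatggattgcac

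A CCAAT box was found in 19 of the 29 genes with a window (65.5%), against 37.5% of 33469 RefSeq promoters of the same length and 37.1% of the 11102 that belong to tested genes. A GC box was found in 22 of 29 (75.9%), against 33.1% of all promoters and 61.4% of those of tested genes. Among the 15 sterol synthesis genes with a window, 12 held a CCAAT box and 13 a GC box. No CCAAT match overlapped a GC box match. The SREBP site TCACNCCAC was in 0 of 29 windows (1.12% of all promoters and 1.1% of those of tested genes), and the LXR direct repeat, searched as 1 exact form, in 0 of 29 (0.0837% and 0.0631%). A missing match says only that these letters were not in these windows. The form searched for LXR joined shortened half-sites at a spacing that differs from the usual LXR element. Its counts hold for that form only, and whether these windows hold LXR sites was not tested.

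Across the 3 groups, 30 of the 36 genes differed (edgeR quasi-likelihood F test with Benjamini-Hochberg adjustment over all tested genes, adjusted p below 0.05), where 46.7% of all tested genes did. The 36 genes together took 0.423%, 0.447% and 0.423% of all counts in the RPTi libraries, 0.463%, 0.464% and 0.443% in the RPT libraries, and 0.540%, 0.533% and 0.532% in the RP libraries. Their share was thus lower in every library with thrombin, with or without the inhibitor, than in any RP library. In 20 of the 36 genes the mean CPM was lowest in RPTi, intermediate in RPT and highest in RP, an order that 13.1% of all tested genes had. The heat map of single libraries shows this order as a blue, pale and red sequence down most sterol genes.

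**Figure D1:**
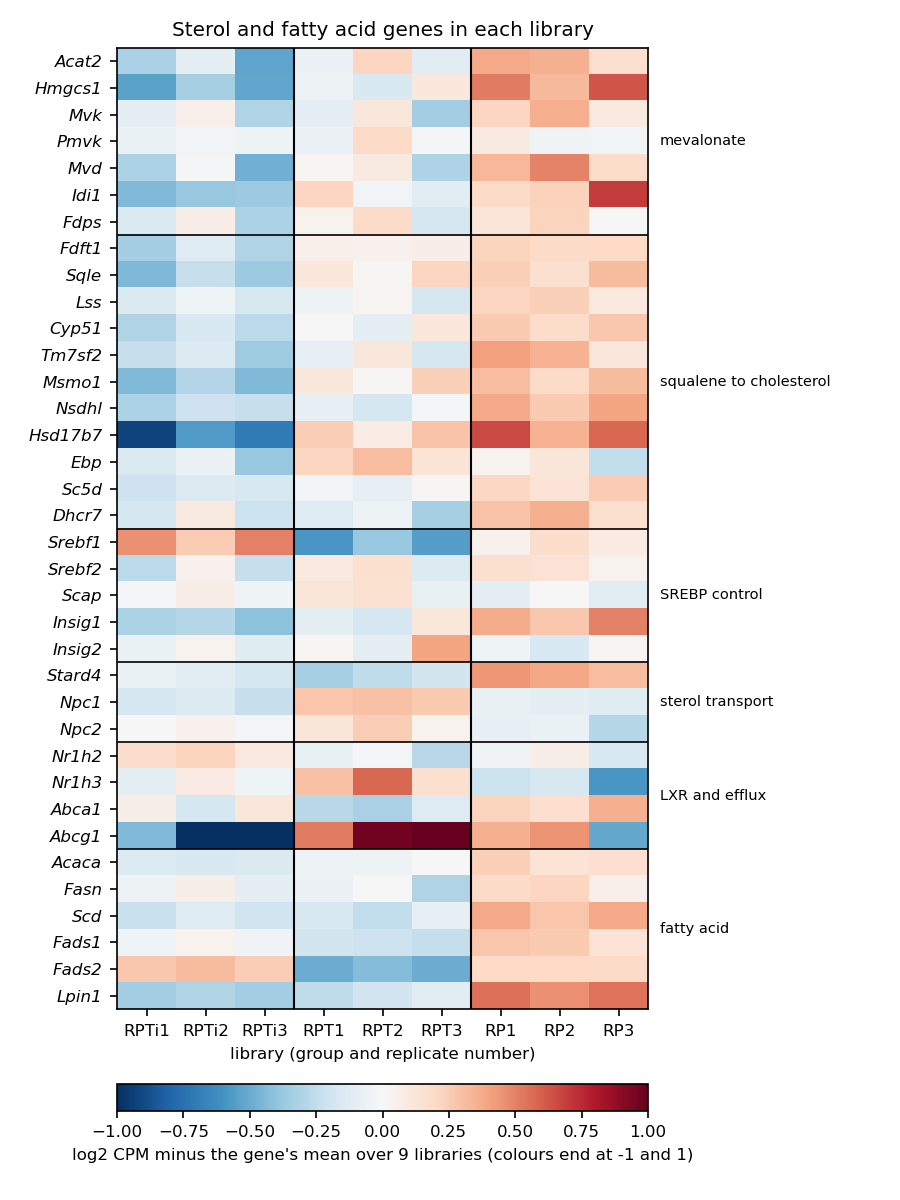
Each cell is the log2 CPM of a gene in a library minus that gene's mean over the 9 libraries, with the genes as rows in order of their role and the libraries as columns (RPTi, RPT, RP). Most sterol synthesis genes are lowest in RPTi and highest in RP, while Srebf1 and Fads2 are lowest in RPT.

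In RPT against RP, 19 of the 36 genes fell, 3 rose and 14 did not pass, where 15.2% of all tested genes fell and 13.6% rose. Their median log2 fold change was -0.26, against -0.00071 over all tested genes, and no gene changed by 1 or more on the log2 scale. Group ranges did not overlap in 24 genes: 19 were lower in RPT than in RP (20.5% of all tested genes) and 5 were higher (20%). The 3 genes that rose were Npc1, Npc2 and the LXRα gene Nr1h3. In RPTi against RPT, 13 genes fell, 5 rose and 18 did not pass, where 21.1% of all tested genes fell and 20.4% rose. The median was -0.15, against -0.01 over all tested genes, and ranges did not overlap in 21 genes, 16 lower (26% of all tested genes) and 5 higher (24.8%). With library totals in place of TMM, 19 members fell, 3 rose and the median was -0.22, while over all genes 38.4% of the calls were rises in place of 49.2%. In RPTi against RP, 21 genes fell and 1 rose, with 14 not passing, where 12.3% of all tested genes fell and 11.9% rose. The median was -0.35, against -0.01 over all genes, and ranges did not overlap in 28 genes, 23 lower (22.2% of all tested genes) and 5 higher (21.7%). With library totals alone the share of rises among all calls of RPTi against RP was 36.6% in place of 49.1%, and 25 members fell. RPT against RP and RPTi against RPT share the RPT libraries, so a gene's 2 values are given side by side and not as separate support. Below, a value in parentheses followed by an SE is a log2 fold change.

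**Figure D2:**
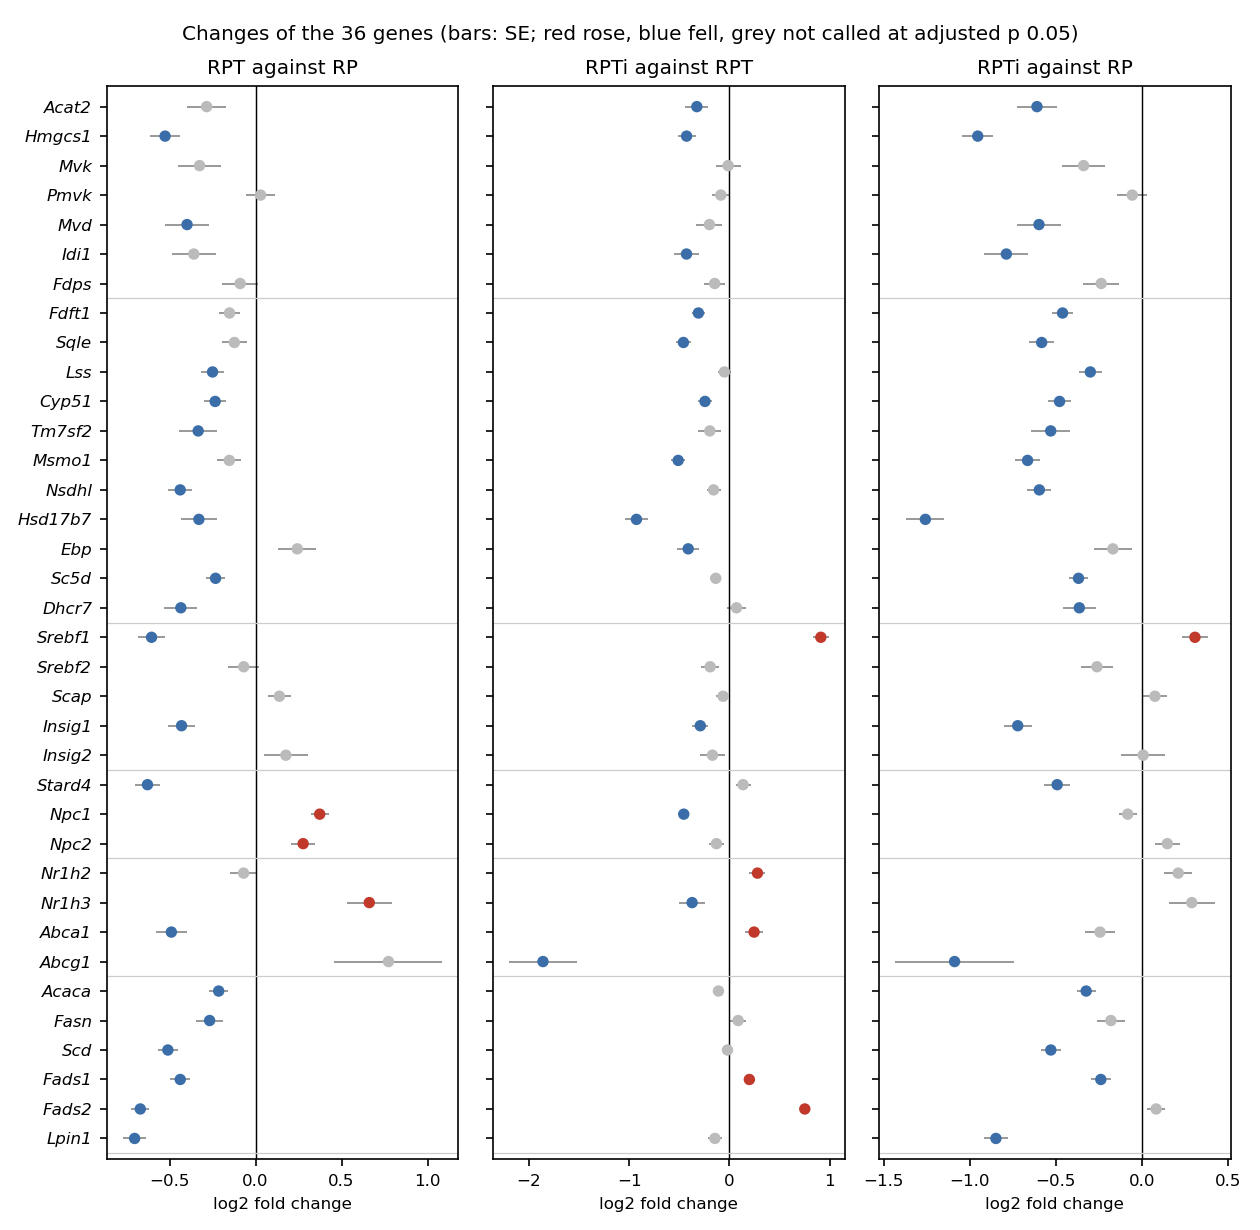
Log2 fold changes of the 36 genes (points, with bars for 1 SE) in RPT against RP, RPTi against RPT and RPTi against RP, with genes that rose in red, those that fell in blue and those not called in grey. The sterol synthesis genes lie left of 0 with few exceptions, and the 6 fatty acid genes all lie left of 0 in RPT against RP.

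Of the 18 genes of the synthetic chain from acetyl-CoA to cholesterol, none rose in any of the 3 comparisons. In RPT against RP, 9 fell and 0 rose (1 rise and 13 falls at an unadjusted p under 0.05, 0 rises and 10 falls by DESeq2), with a median log2 fold change of -0.27. In RPTi against RPT, 9 fell and 0 rose (0 rises and 11 falls at an unadjusted p under 0.05, 0 and 9 by DESeq2), with a median of -0.22. Between RPTi and RP, 14 fell and 0 rose (0 and 16 at an unadjusted p under 0.05, 0 and 15 by DESeq2), with a median of -0.50, and all 18 log2 fold changes were negative, as were 51% of those of all tested genes. In the same order of comparisons, 50%, 50% and 77.8% of the chain fell, against 15.2%, 21.1% and 12.3% of all tested genes. The mean CPM was lowest in RPTi, intermediate in RPT and highest in RP in 15 of the 18 genes. Their summed CPM was 1579, 1782 and 1549 in RPTi, 1964, 1965 and 1954 in RPT, and 2339, 2281 and 2321 in RP, with no overlap between any 2 groups. RPTi2 was the highest RPTi library in 17 of the 18 genes. Without it, 14 of the 36 genes fell in RPTi against RPT and 22 in RPTi against RP. Over all genes, the falls without RPTi2 were 2456 in place of 2920 and 1240 in place of 1705.

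Of the 7 enzymes from acetyl-CoA to farnesyl diphosphate, 2 fell in RPT against RP, 3 in RPTi against RPT and 4 in RPTi against RP. These are 28.6%, 42.9% and 57.1% of them, where 15.2%, 21.1% and 12.3% of all tested genes fell. Hmgcs1 (ENSRNOG00000016552), which makes HMG-CoA on the way to mevalonate, had 155, 178 and 156 CPM in RPTi, 216, 201 and 241 CPM in RPT and 320.4, 281 and 347 CPM in RP. No library of one group reached into another. Hmgcs1 fell in RPT against RP (log2 fold change -0.53, SE 0.09, adjusted p = 0.000793), in RPTi against RPT (-0.43, SE 0.09) and in RPTi against RP, where it was 1.94-fold lower (adjusted p = 9.08e-06). Mvd, the mevalonate diphosphate decarboxylase, also fell in RPT against RP (-0.40, SE 0.13), with all RPT libraries below all RP libraries. Idi1, the isomerase of isopentenyl diphosphate, came close in that comparison (log2 fold change -0.36, SE 0.13, adjusted p = 0.0502). It fell in RPTi against RPT (-0.43, SE 0.13) and, by 1.73-fold, in RPTi against RP. The thiolase Acat2 did not pass in RPT against RP (adjusted p = 0.0803) and fell in RPTi against RPT (-0.33, SE 0.11) and in RPTi against RP (-0.61, SE 0.11). The kinases Mvk and Pmvk and the synthase Fdps passed in none of the comparisons, and the log2 fold changes of Mvk were -0.33 in RPT against RP, -0.01 in RPTi against RPT and -0.34 in RPTi against RP.

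Several of these calls turned on 1 library, with adjusted p given for each library left out. Mvd in RPT against RP did not pass without RP1 (0.0785), RP2 (0.123), RPT1 (0.0552), RPT3 (0.114) or RPTi1 (0.0517). Idi1 passed in RPT against RP without RP1 (0.0304), RP2 (0.0382) or RPT1 (0.0289), and lost its call in RPTi against RPT without RPT1 (0.0814) or RPTi1 (0.0656). Acat2 passed in RPT against RP without RPT2 (0.0248) and lost its call in RPTi against RPT without RPT2 (0.146), RPTi1 (0.0979) or RPTi3 (0.156). The calls of Hmgcs1 passed with each of the 9 libraries left out in turn. Mvk passed in RPT against RP without RPT2 (0.0245), and in RPTi against RP without RPT2 (0.0436) or RPT3 (0.0328). Fdps passed in RPTi against RP without RPTi2 (0.043). With the other processing alternatives included, Idi1 passed in RPT against RP under 7 of the 18, Mvk in RPTi against RP under 8, and Mvd lost its call in RPT against RP under 7.

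Of the 11 enzymes from squalene synthesis to cholesterol, 7 fell in RPT against RP, 6 in RPTi against RPT and 10 in RPTi against RP. That makes 63.6%, 54.5% and 90.9%, where 15.2%, 21.1% and 12.3% of all tested genes fell. All 11 differed over the 3 groups, as did 46.7% of all tested genes. Hsd17b7 (ENSRNOG00000002826), the ketosteroid reductase of sterol demethylation whose promoter is printed above, had 11.2, 14.4 and 13.1 CPM in RPTi, 25.2, 22.3 and 25.9 CPM in RPT and 33.6, 27.04 and 31.6 CPM in RP. The 3 groups did not overlap, and the RPTi libraries stood well apart from all others. It was 1.9-fold lower in RPTi than in RPT (log2 fold change -0.93, SE 0.11, adjusted p = 2.34e-05) and 2.39-fold lower in RPTi than in RP (-1.26, SE 0.11), the largest fall of the chain in both. It also fell in RPT against RP (log2 fold change -0.33, SE 0.11, adjusted p = 0.0348).

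Nsdhl, which acts beside Hsd17b7 in removing the methyl groups, had 43.7, 47.1 and 46.5 CPM in RPTi, 51.4, 48.1 and 53.7 CPM in RPT and 70.7, 65.2 and 71.7 CPM in RP. Its RP libraries lay well above the 6 others, and all RPTi libraries lay below all RPT libraries. It fell in RPT against RP (log2 fold change -0.44, SE 0.07, adjusted p = 0.000442), did not pass in RPTi against RPT (adjusted p = 0.0887) and was 1.51-fold lower in RPTi than in RP. Cyp51, the lanosterol demethylase, had 229, 254 and 234 CPM in RPTi, 282, 263 and 304 CPM in RPT and 339, 321 and 339.7 CPM in RP. It fell in RPT against RP (-0.24, SE 0.07) and RPTi against RPT (-0.24, SE 0.07), with no overlap between groups. Sc5d, the lathosterol desaturase, had 127, 133 and 131 CPM in RPTi, 144, 139 and 148 CPM in RPT and 169.6, 161 and 175 CPM in RP. It fell in RPT against RP (-0.23, SE 0.06) and in RPTi against RP (-0.37, SE 0.06), and did not pass in RPTi against RPT (adjusted p = 0.072) although the groups did not overlap. The cyclase Lss, the sterol reductase Tm7sf2 and Dhcr7, which makes cholesterol from its last precursor, likewise fell in RPT against RP (-0.25 for Lss, -0.33 for Tm7sf2 and -0.43 for Dhcr7) and in RPTi against RP, but not in RPTi against RPT.

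Another 4 enzymes did not pass in RPT against RP and fell in RPTi against RPT. Msmo1, the methyl sterol oxidase, had 118, 129.9 and 118 CPM in RPTi, 172, 160.5 and 188 CPM in RPT and 198, 182 and 199 CPM in RP. Its RPT and RP ranges overlapped (adjusted p = 0.128), while it was 1.43-fold lower in RPTi than in RPT (log2 fold change -0.51, SE 0.07, adjusted p = 8.62e-05). Sqle, the squalene epoxidase and a rate-controlling step of the chain, had 114, 132 and 120.5 CPM in RPTi, 167, 157 and 179.7 CPM in RPT and 182, 173 and 193 CPM in RP. Here too RPT and RP overlapped (adjusted p = 0.233), and all RPTi libraries lay below both, with a 1.37-fold fall against RPT (-0.46, SE 0.07). Fdft1, the squalene synthase, had 93.96, 109 and 96.5 CPM in RPTi, 123, 123 and 125 CPM in RPT and 139, 136 and 137 CPM in RP. Its RPT libraries were all below RP without passing the test (log2 fold change -0.15, SE 0.06, adjusted p = 0.0886), and it fell in RPTi against RPT (-0.31, SE 0.06). Ebp, the sterol isomerase, was 1 of the 3 genes outside the order of the chain, beside Pmvk and Dhcr7. Its RPT libraries were the highest, above all RP libraries without passing (log2 fold change 0.24, SE 0.11, adjusted p = 0.12), and it fell in RPTi against RPT (-0.41, SE 0.11). Whether the 2 sets of enzymes differ from each other was not tested, and they were told apart by their calls.

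In RPT against RP, Hsd17b7 did not pass without RP1 (adjusted p = 0.146), RP3 (0.0795), RPT1 (0.0662) or RPT2 (0.112). Cyp51 did not pass there without RP1 (adjusted p = 0.0665), RPT1 (0.0555) or RPT2 (0.0561). Tm7sf2 did not pass without RP1 (adjusted p = 0.162), RP2 (0.103), RPT1 (0.115), RPT3 (0.112) or RPTi1 (0.0566), nor Lss without RP1 (0.0591). Hsd17b7 kept its calls in RPTi against RPT and in RPTi against RP whichever library was left out. Msmo1 did pass in RPT against RP without RPT3 (adjusted p = 0.0307). In RPTi against RPT, Nsdhl passed without RPT2 (adjusted p = 0.0457), as did Sc5d (adjusted p = 0.0495). With the other alternatives included, each of the pair passed there under 5 of the 18, among them library totals and limma on either FPKM scale. Dhcr7 did not pass in RPTi against RP without RPTi1 (adjusted p = 0.07) or RPTi3 (0.066).

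**Figure D3:**
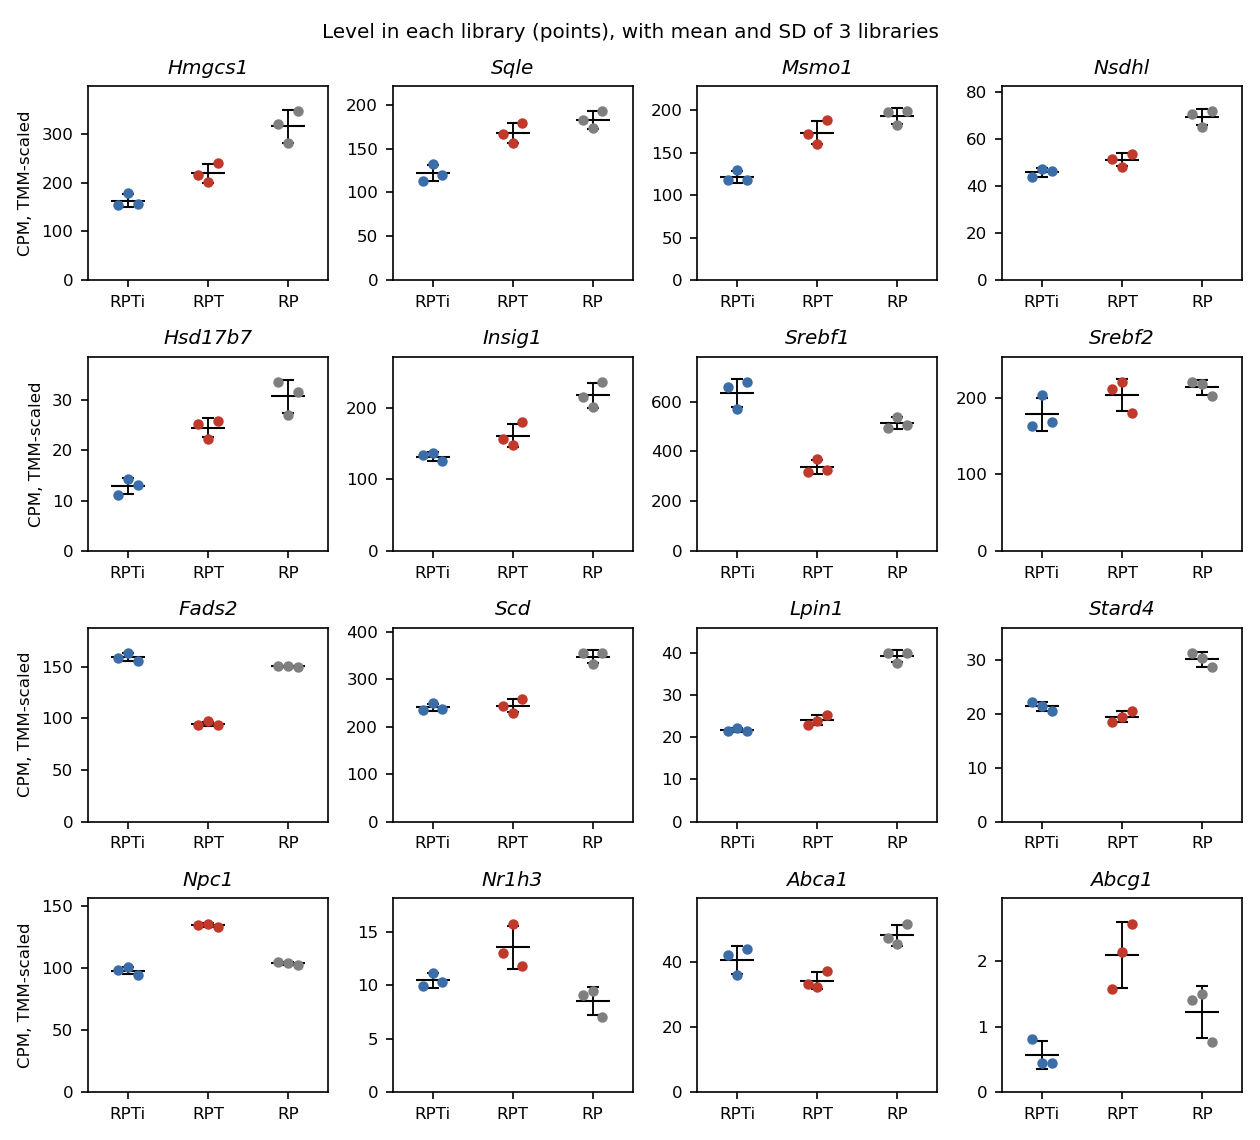
CPM of 16 genes in each library (points) by group (RPTi, RPT, RP, left to right), with the mean and SD of 3 libraries as lines and bars, on axes that start at 0. Hmgcs1, Hsd17b7 and Insig1 are lowest in RPTi and highest in RP, Srebf1 and Fads2 are lowest in RPT, and Npc1, Nr1h3 and Abcg1 are highest in RPT.

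Of the 5 SREBP control genes, 2 passed over the 3 groups, Srebf1 and Insig1, where 46.7% of all tested genes did. Srebf1 (ENSRNOG00000003463), which encodes both SREBP-1 isoforms, had 658, 569.6 and 679 CPM in RPTi, 319, 368 and 326 CPM in RPT and 494, 540.0 and 507 CPM in RP. The 3 groups were fully separate, with RPT lowest and RPTi highest. Srebf1 was 1.52-fold lower in RPT than in RP (log2 fold change -0.60, SE 0.08, adjusted p = 7.95e-05) and 1.88-fold higher in RPTi than in RPT (log2 fold change 0.91, SE 0.08, adjusted p = 1.02e-06), the largest rise among the 36 genes. Between RPTi and RP it was the only member that rose (log2 fold change 0.31, SE 0.08, adjusted p = 0.011), a call that was lost without RP1 (adjusted p = 0.0532), RPTi1 (0.0579) or RPTi3 (0.0574), and with limma on either FPKM scale. The count of members that rose in RPTi against RP was then 0. The summed chondrocyte markers had the same order of groups as Srebf1, and their part in this result was not tested.

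Insig1, an SREBP target that holds the SREBP and Scap complex in the endoplasmic reticulum, fell in all 3 comparisons. It had 134, 137 and 125 CPM in RPTi, 157, 148 and 179.6 CPM in RPT and 215, 201 and 236 CPM in RP, without overlap. It fell in RPT against RP (-0.43, SE 0.08), in RPTi against RPT (-0.29, SE 0.08) and by 1.65-fold in RPTi against RP (adjusted p = 3.82e-05). The fall in RPTi against RPT did not pass without RPTi3 (adjusted p = 0.0517). The other members that fell in all 3 comparisons were Hmgcs1, Cyp51 and Hsd17b7, enzymes of the chain. The 3 comparisons share libraries, so these falls are not separate support. The share of all tested genes that fell in all 3 was not counted.

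Srebf2, the gene of the main SREBP of cholesterol synthesis, had 163, 203 and 168 CPM in RPTi, 211, 220.0 and 179 CPM in RPT and 220.3, 218 and 202 CPM in RP. The ranges of the groups overlapped in every pair. It did not pass in RPT against RP (-0.07, SE 0.09), in RPTi against RPT (-0.19, SE 0.09) or in RPTi against RP (log2 fold change -0.26, SE 0.09, adjusted p = 0.0563). It passed in RPTi against RP without RPT2 (adjusted p = 0.0464), RPT3 (0.0245) or RPTi2 (0.014), and also with DESeq2 (0.0347), with no filter (0.0288), with library totals (0.0246), in a fit of only the 6 libraries compared (0.0321), with limma on log2(FPKM + 1) (0.0472) and with the replicate number as a block (0.00664), which makes 9 of the 18 alternatives. It passed under 4 of the 18 in RPTi against RPT, among them without RPT3 (0.0234) or RPTi2 (0.0211). Scap, the escort of both SREBPs, had 122, 129 and 119.8 CPM in RPTi, 134, 137 and 117 CPM in RPT and 116, 123 and 114 CPM in RP, with overlap in every pair of groups. Its log2 fold change in RPT against RP was 0.14, SE 0.07, which passed without RPT3 (adjusted p = 0.0199). Insig2, the second Insig gene, was lower than Insig1 in level (8.12 FPKM against 70.5 FPKM) and passed in no comparison.

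Of the 3 genes of sterol transport between membranes, 2 rose and 1 fell in RPT against RP, where 13.6% of all tested genes rose and 15.2% fell. Npc1, the lysosomal membrane protein that exports cholesterol, had 98.2, 101 and 94.6 CPM in RPTi, 134, 136 and 133 CPM in RPT and 105, 104 and 102 CPM in RP. All RPT libraries stood above the 6 others. Npc1 rose in RPT against RP (log2 fold change 0.37, SE 0.05, adjusted p = 0.000211), fell in RPTi against RPT (-0.46, SE 0.05) and did not pass in RPTi against RP (adjusted p = 0.285). Npc2, its soluble partner, rose in RPT against RP (0.28, SE 0.07) and did not pass in RPTi against RPT (adjusted p = 0.165). Stard4, a cytosolic carrier that delivers cholesterol to the endoplasmic reticulum and an SREBP target, had 22.1, 21.4 and 20.5 CPM in RPTi, 18.5, 19.4 and 20.5 CPM in RPT and 31.3, 30.2 and 28.6 CPM in RP. It was 1.55-fold lower in RPT than in RP (log2 fold change -0.63, SE 0.07, adjusted p = 4.32e-05), and 1.41-fold lower in RPTi than in RP (-0.49, SE 0.07).

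Of the 2 LXR genes and the 2 exporter genes, 1 rose and 1 fell in RPT against RP and 2 rose and 2 fell in RPTi against RPT. Of all tested genes, 13.6% rose and 15.2% fell in the first comparison, and 20.4% rose and 21.1% fell in the second. Each of these LXR and exporter genes differed over the 3 groups, as did 46.7% of all tested genes. Nr1h3, the LXRα gene, had 9.91, 11.2 and 10.3 CPM in RPTi, 13.02, 15.8 and 11.9 CPM in RPT and 9.14, 9.50 and 7.08 CPM in RP. It was 1.58-fold higher in RPT than in RP (log2 fold change 0.66, SE 0.13, adjusted p = 0.00238) and fell in RPTi against RPT (log2 fold change -0.37, SE 0.13, adjusted p = 0.0368), with no overlap in either pair. Summed macrophage markers were also highest in RPT, at no more than 3.92 FPKM, and nearly all of that sum was Cd68, at a mean of 3.67 FPKM in RPT against 2.40 FPKM in RP. Csf1r, the other macrophage marker that could be tested, went the other way in RPT against RP (log2 fold change -0.94, SE 0.32, adjusted p = 0.0449). That call rested on 12 to 23 counts per library in RPT and 25 to 44 in RP. By DESeq2, 0 genes of this list fell there. The part of these markers in the result for Nr1h3 was not tested. Nr1h2, the gene of the widely expressed LXRβ, had 91.9, 95.2 and 87.4 CPM in RPTi, 77.6, 81.1 and 67.4 CPM in RPT and 79.4, 84.7 and 73.2 CPM in RP. RPT and RP overlapped (-0.07, SE 0.08), and it rose in RPTi against RPT (log2 fold change 0.28, SE 0.08, adjusted p = 0.0137). On the FPKM scale Nr1h2 (40.6) stood above Nr1h3 (6.65).

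Abca1, the exporter that loads cholesterol onto apolipoprotein A-I, had 42.04, 35.8 and 43.7 CPM in RPTi, 33.3, 32.3 and 37.02 CPM in RPT and 47.1, 45.4 and 51.6 CPM in RP. It was 1.4-fold lower in RPT than in RP (log2 fold change -0.49, SE 0.09, adjusted p = 0.00136), with separate ranges. It rose in RPTi against RPT (log2 fold change 0.25, SE 0.09, adjusted p = 0.0444), with ranges that overlapped. Abcg1 (ENSRNOG00000001158), the exporter toward high-density lipoprotein, had 0.807, 0.452 and 0.447 CPM in RPTi, 1.57, 2.14 and 2.56 CPM in RPT and 1.40, 1.49 and 0.766 CPM in RP. These rest on 14 to 29 counts per library in RPTi, 60 to 84 in RPT and 29 to 62 in RP. Abcg1 was 3.63-fold lower in RPTi than in RPT (log2 fold change -1.86, SE 0.34, adjusted p = 0.000766), the largest change of any member, and fell in RPTi against RP (log2 fold change -1.09, SE 0.35, adjusted p = 0.0372) with overlapping ranges. In RPT against RP all its RPT libraries were above RP, without passing (0.77, SE 0.31).

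In RPTi against RPT, Nr1h3 lost its call without RPT1 (adjusted p = 0.0571), RPT2 (0.147), RPTi1 (0.115) or RPTi3 (0.0904), and Nr1h2 without RPTi2 (0.0557). Abca1 lost it without RP1 (adjusted p = 0.0626), RP2 (0.05002), RPT1 (0.123), RPT2 (0.119), RPTi1 (0.138) or RPTi3 (0.173), and with library totals in place of TMM (adjusted p = 0.143). With limma on either FPKM scale, both Abca1 and Nr1h2 lost it. Both Nr1h3 and Abca1 passed in RPT against RP whichever library was left out. Abcg1 did not pass in RPTi against RP without RP1 (adjusted p = 0.116), RP2 (0.103), RPTi2 (0.122) or RPTi3 (0.119). Without RPT3, Abca1 (adjusted p = 0.0442) and Nr1h2 (0.0296) passed in RPTi against RP, Abca1 as a fall and Nr1h2 as a rise, so that 2 members rose there in place of 1. In all, each of the pair passed there under 4 of the 18 alternatives.

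All 6 fatty acid genes fell in RPT against RP, with a median log2 fold change of -0.47, and 0 rose (0 rises and 6 falls also at an unadjusted p under 0.05 and by DESeq2). In RPTi against RPT, 2 rose and 0 fell (2 and 0 also at an unadjusted p under 0.05 and by DESeq2), with a median of 0.03. In RPTi against RP, 4 fell and 0 rose (0 rises and 5 falls at an unadjusted p under 0.05, 0 and 4 by DESeq2), with a median of -0.28. Among all tested genes, 15.2% fell in RPT against RP, 20.4% rose in RPTi against RPT and 12.3% fell in RPTi against RP. Fads2 (ENSRNOG00000020440), the desaturase that starts the making of long polyunsaturated fatty acids, had 159, 164 and 156 CPM in RPTi, 93.3, 97.4 and 93.2 CPM in RPT and 151, 151 and 150.1 CPM in RP. It was low in the 3 RPT libraries and nearly level in the 6 others. Fads2 had the smallest p of the 36 genes over the 3 groups. It was 1.59-fold lower in RPT than in RP (log2 fold change -0.67, SE 0.05, adjusted p = 1.51e-06), 1.68-fold higher in RPTi than in RPT (log2 fold change 0.75, SE 0.05, adjusted p = 1.77e-07) and did not pass in RPTi against RP (0.08, SE 0.05).

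Fads1, the next desaturase of the same route and a neighbour of Fads2 in the genome, had 139, 148 and 140.3 CPM in RPTi, 126, 124 and 122 CPM in RPT and 174, 172 and 158 CPM in RP. It fell in RPT against RP (log2 fold change -0.44, SE 0.06, adjusted p = 0.000108), and it rose in RPTi against RPT (log2 fold change 0.20, SE 0.06, adjusted p = 0.0146). That rise was lost without RPTi2 (adjusted p = 0.0575) or with library totals in place of TMM (adjusted p = 0.0835), and its fall in RPTi against RP without RP1 (0.0547). Without RPTi2, the members that rose in RPTi against RPT numbered 3 in place of 5, and all genes that rose there 2472 in place of 2825.

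Lpin1, the phosphatidate phosphatase of glycerolipid synthesis and also a transcriptional coregulator, had 21.6, 22.2 and 21.5 CPM in RPTi, 22.9, 23.9 and 25.3 CPM in RPT and 39.98, 37.6 and 39.9 CPM in RP. Both thrombin groups were far below RP. It was 1.63-fold lower in RPT than in RP (log2 fold change -0.70, SE 0.07, adjusted p = 8.78e-06), the largest fall of any member in that comparison, and 1.8-fold lower in RPTi than in RP (-0.85, SE 0.07). Scd, the stearoyl-CoA desaturase, had 234, 249 and 238 CPM in RPTi, 244, 229.5 and 257 CPM in RPT and 355, 331 and 355 CPM in RP. RPTi and RPT overlapped (-0.02, SE 0.06), and both lay below RP (log2 fold change -0.51, SE 0.06, adjusted p = 4.05e-05 for RPT against RP). Acaca, the acetyl-CoA carboxylase, and Fasn, the fatty acid synthase, also fell in RPT against RP (-0.21, SE 0.06 for Acaca and -0.27, SE 0.08 for Fasn). Acaca did not pass there without RP1 (adjusted p = 0.0734) or RPT1 (0.0531), nor Fasn without RP1 (0.083), RP2 (0.0764) or RPT3 (0.0561). Fasn passed in RPTi against RP without RPT3 (adjusted p = 0.0357).

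Other genes of the same pathways came from 3 lists. Of 30 other sterol genes, 6 fell and 3 rose in RPT against RP, 6 fell and 10 rose in RPTi against RPT, and 6 fell and 2 rose in RPTi against RP. The falls were 20% of the list in each comparison, where 15.2%, 21.1% and 12.3% of all tested genes fell. The rises were 10%, 33.3% and 6.67%, where 13.6%, 20.4% and 11.9% of all tested genes rose. The shares in RPT against RP and the falls in RPTi against RPT lay near those of all genes. Acss2, which makes acetyl-CoA from acetate, was 1.81-fold lower in RPT than in RP (log2 fold change -0.86, SE 0.09, adjusted p = 1.02e-05) and rose in RPTi against RPT (0.36, SE 0.09). Mylip, an LXR target, also fell in RPT against RP (-0.58, SE 0.09) and rose in RPTi against RPT (0.35, SE 0.09). Without RP2, Mylip passed in RPTi against RP as well (adjusted p = 0.0367). The opposite pattern was shown by Soat1, which esterifies cholesterol for storage (0.37, SE 0.06 in RPT against RP, -0.40, SE 0.06 in RPTi against RPT), and by Nceh1, which splits cholesteryl esters (0.26, SE 0.07 and -0.59, SE 0.08 in the same comparisons). The rise of Nceh1 did not pass without RP3 (adjusted p = 0.0622). Vldlr, a lipoprotein receptor, rose in RPTi against RPT (0.41, SE 0.08) and RPTi against RP (0.56, SE 0.08). It passed in RPT against RP without RPT2 (adjusted p = 0.0381).

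Of 15 tested genes of the LXR and lipoprotein list (17 listed), 6 fell and 0 rose in RPT against RP (0 rises and 7 falls at an unadjusted p under 0.05, 0 and 6 by DESeq2), 6 rose and 1 fell in RPTi against RPT, and 2 rose and 2 fell in RPTi against RP. The 6 falls in RPT against RP and the 6 rises in RPTi against RPT were each 40% of the list, where 15.2% and 20.4% of all tested genes did so. In RPTi against RP, rises and falls were 13.3% each, near the 11.9% and 12.3% of all tested genes. Lpl, the lipoprotein lipase, had 13.9, 13.2 and 14.7 CPM in RPTi, 3.95, 4.09 and 5.79 CPM in RPT and 12.3, 8.79 and 9.19 CPM in RP. It was 2.2-fold lower in RPT than in RP (log2 fold change -1.14, SE 0.16, adjusted p = 0.000211) and 3.03-fold higher in RPTi than in RPT (log2 fold change 1.60, SE 0.16, adjusted p = 5.5e-06). Its rise in RPTi against RP (0.46, SE 0.15, adjusted p = 0.0432) did not pass without RP2 (adjusted p = 0.13), RP3 (0.131), RPTi1 (0.107), RPTi2 (0.0729) or RPTi3 (0.125), nor with library totals or limma on either FPKM scale. Apoe, the apolipoprotein made by many cells for cholesterol transport, fell in RPT against RP (-0.60, SE 0.07) and rose in RPTi against RPT (0.55, SE 0.07). The phospholipid transfer protein gene Pltp did the same (-0.41, SE 0.08 and 0.92, SE 0.08), and so did the phosphodiesterase gene Smpdl3a (-0.55, SE 0.08 and 0.37, SE 0.08). Abcg4, a relative of Abcg1, rose in RPTi against RPT (log2 fold change 1.12, SE 0.25, adjusted p = 0.00328). It passed there under all 18 alternatives, but its log2 fold change ran from 0.33 to 1.22, so the size depended on the processing.

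Of 27 other fatty acid genes tested (30 listed), 5 fell and 2 rose in RPT against RP, 7 fell and 5 rose in RPTi against RPT, and 9 fell and 1 rose in RPTi against RP. The falls were 18.5%, 25.9% and 33.3% of the list, against 15.2%, 21.1% and 12.3% of all tested genes, and the rises 7.41%, 18.5% and 3.7%, against 13.6%, 20.4% and 11.9%. The falls in RPT against RP and both shares in RPTi against RPT lay near those of all genes. Scd2, a near copy of Scd whose shared reads could be split between the pair in counting, stood at 466 FPKM against 61.95 FPKM for Scd. It fell in RPT against RP (log2 fold change -0.45, SE 0.05, adjusted p = 1.68e-05) and rose in RPTi against RPT (0.24, SE 0.05). Plin2, the coat protein of lipid droplets, went the other way: it had 55.6, 55.6 and 58.3 CPM in RPTi, 98.2, 97.2 and 96.1 CPM in RPT and 69.7, 68.9 and 63.8 CPM in RP, rose in RPT against RP (log2 fold change 0.53, SE 0.06, adjusted p = 3.11e-05) and fell in RPTi against RPT (-0.78, SE 0.06). Cpt1a, which admits fatty acids to mitochondria, did not pass in RPT against RP (0.05, SE 0.08) and fell in RPTi against RPT (-0.73, SE 0.08) and in RPTi against RP (-0.69, SE 0.08). Acly, the citrate lyase, did not pass in RPT against RP (adjusted p = 0.0512) and fell in RPTi against RPT (-0.18, SE 0.05). Acly passed in RPT against RP without RPT3 (adjusted p = 0.0217) or RPTi2 (0.0481) and under 5 of the 18 alternatives in all, and lost its call in RPTi against RPT without RPTi1 (0.0697) or RPTi3 (0.0524). Among the activating enzymes, Acsl1 fell in RPT against RP (-0.32, SE 0.07) and rose in RPTi against RPT (0.50, SE 0.07), while Acsl3 fell in RPTi against RPT (-0.65, SE 0.08). The malic enzyme gene Me1 fell and rose in the same 2 comparisons (-0.54, SE 0.08 and 0.59, SE 0.08), and the acyltransferase gene Agpat2 rose and fell (0.74, SE 0.10 and -0.54, SE 0.10).

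**Figure D4:**
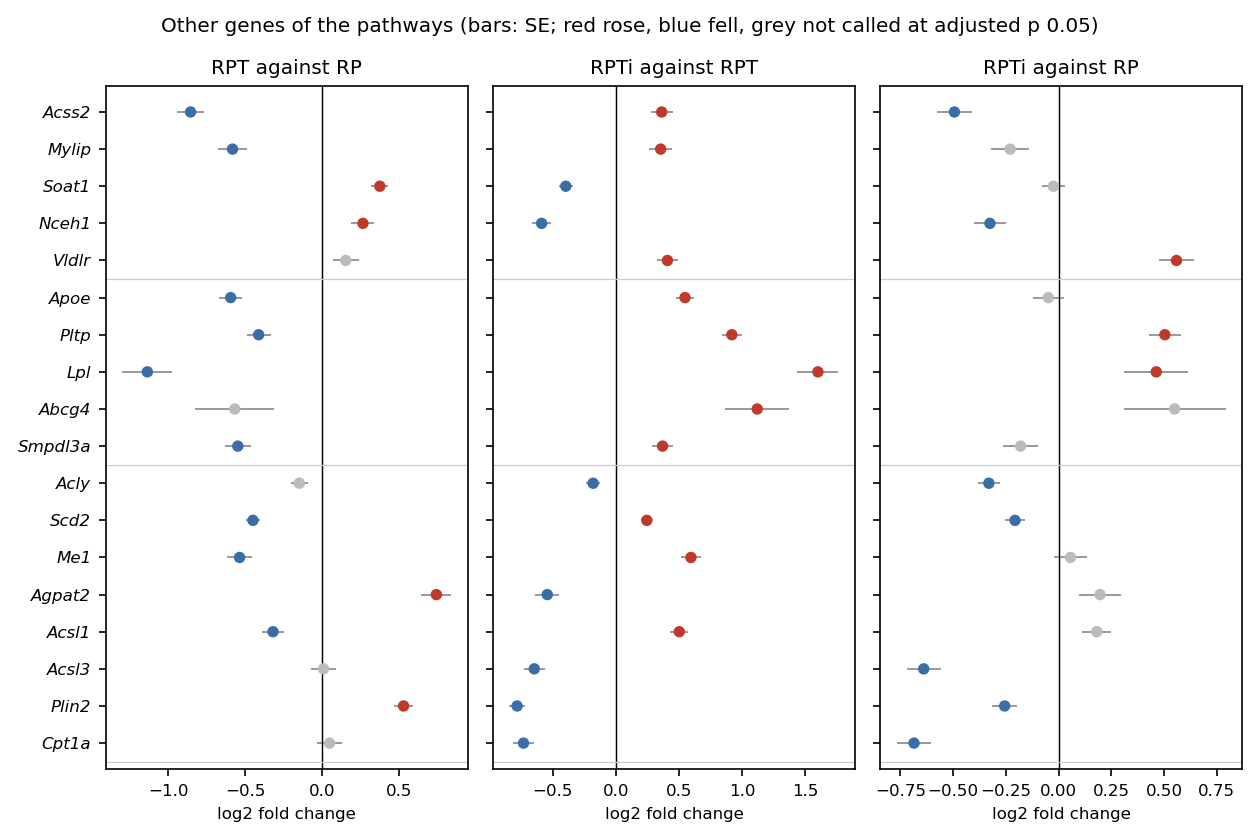
Log2 fold changes (points, with bars for 1 SE) of named genes outside the 36, in RPT against RP, RPTi against RPT and RPTi against RP, from top to bottom other sterol genes, LXR and lipoprotein genes, and other fatty acid genes. Lpl, Pltp, Apoe and Acss2 lie left of 0 in the first panel and right of 0 in the second, and Plin2, Soat1 and Agpat2 the reverse.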

How the data were processed

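The authors deposited a table of read counts per Ensembl gene for each of the 9 libraries, with the build Rnor_6.0 and the tools HISAT2, HTSeq 0.11.2 and DESeq2 1.26.0 per the submitters' processing notes. The role of each tool, the annotation release and the strand setting were not given in the sources used here, so reads of overlapping, antisense or near-identical genes may be shared between them. The FPKM values deposited by the authors in the same table equal their counts divided by 1 length per gene and the library total, within a relative difference of 2.01e-13.

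From the counts, 13856 genes were kept by filterByExpr (minimum count 10, minimum total 15; 0.0259% of counts removed), scaled by TMM and fitted in 1 edgeR quasi-likelihood model over all 9 libraries (edgeR 4.0.16, R 4.3.3), with two-sided tests and Benjamini-Hochberg adjustment over all tested genes. Genes rose or fell at an adjusted p below 0.05. All adjusted p-values come from this test unless another tool is named, and SE (standard error) was derived from the log2 fold change and its F statistic. Folds of low genes depend on the prior count of 0.125. The scripts were tested on simulated counts. Groups and replicate numbers came from the sample titles. Nothing in the labels ties libraries to separate animals or cultures, so the spread behind each p may be technical. The alternatives were other scalings, other filters, DESeq2 1.42.0, limma 3.58.1 on log2(FPKM + 1) and log2(FPKM + 0.1), only the 6 libraries compared, a replicate block and each library left out.

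The members and gene lists were chosen with earlier results of these data known. Values of every library are given for up to 16 called members with the smallest F test p and for Srebf1, Srebf2, Insig1, Scap, Nr1h2, Nr1h3, Abca1 and Abcg1. Of the other pathway genes, 10 were fixed by name (Mylip, Apoe, Acly, Scd2, Plin2, Cpt1a and 4 that are not reported here), and up to 4 more called genes per list were named by smallest F test p. Promoters and gene chromosomes are from RefSeq GRCr8 and were matched by symbol.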

Additional observations from a re-analysis of the deposited data

How the results depend on the processing

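No member reversed a called direction under the 18 alternatives. Of the 22 members called in RPT against RP, 15 kept their call under all 18, as did 11 of 18 in RPTi against RPT and 18 of 22 in RPTi against RP. Of the members not called, 7 of 14 in RPT against RP, 8 of 18 in RPTi against RPT and 8 of 14 in RPTi against RP passed under at least 1 alternative. The counts of falls stayed within 1.5 times their value but moved by more genes than the rises did: 19 in RPT against RP became 13 (without RP1) to 23, 13 in RPTi against RPT became 10 to 19, and 21 in RPTi against RP became 19 to 26. Over all genes, the falls in RPT against RP moved too, from 2113 to 1592 without RP1 and to 2560 with the replicate block. As ratios the small counts of rises moved most, and the causes were not tested. In RPTi against RPT, 5 members rose, but 3 with library totals alone and 2 with limma on either FPKM scale, where the median of the members was -0.22 with library totals and -0.22 on log2(FPKM + 0.1) in place of -0.15. Leaving out 1 library gave 3 to 5. In RPTi against RP, 1 member rose, but 2 with DESeq2, 2 in a fit of only the 6 libraries compared and 0 with limma on either FPKM scale. Leaving out 1 library gave 0 to 2. Over all genes, the share of rises among calls was 38.7% and 39.8% on the FPKM scales in RPTi against RPT, and 38.0% and 38.4% in RPTi against RP, in place of 49.2% and 49.1%.

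Taken across genes, same-numbered libraries did not deviate together (correlations of -0.114 to 0.124). Some members, among them Mvk, Mvd, Fdps, Dhcr7, Ebp and Fasn, still had the same order of replicate numbers in all 3 groups. Others, among them Hmgcs1, did not. Whether the numbers pair the libraries for some genes was not tested. With the replicate number as a block, 5 members rose and 23 fell in RPT against RP, 5 rose and 19 fell in RPTi against RPT, and 4 rose and 26 fell in RPTi against RP. Calls over all genes grew as well. In RPT against RP, 2514 rose and 2560 fell in place of 1886 and 2113. In RPTi against RPT the numbers were 3255 and 3443 in place of 2825 and 2920. In RPTi against RP they were 2333 and 2356 in place of 1647 and 1705, and 7799 genes in place of 6471 differed over the 3 groups. Depth limits mainly Abcg1, with 14 counts in its lowest library.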

Other observations

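RPTi2 was the highest RPTi library in 30 of all 36 genes. Its summed CPM over the 18 sterol synthesis genes, 1782, was still below the lowest RPT library (1954). Among the RPT libraries, RPT2 was the highest in 9 of the 18 genes, RPT3 in 8 and RPT1 in 1. Without RPTi2 the median log2 fold change of the 36 genes in RPTi against RPT was -0.20, in place of -0.15.

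The 6 fatty acid genes had another order of their summed CPM than the sterol synthesis genes. Their sums were 1107, 1173 and 1093 CPM in RPTi, 1041, 1051 and 983 CPM in RPT, and 1383, 1356 and 1309 CPM in RP. Each RPTi library was thus above each RPT library, and all 6 were below the RP libraries. The difference between the 2 sums was not tested.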
